A study of Mus musculus with 14 samples.

Results

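Promoters that were accessible in mouse embryonic stem (ES) cells and no longer called 48 h after GATA6 induction are described here. They were chosen by their calls in 4 ATAC-seq libraries. All peak lists of the series were merged on the autosomes wherever peaks overlapped by at least 1 bp, and a merged region counted as called in a library if a peak of that library overlapped it. A region was kept if its midpoint lay within 1 kb of the transcription start site (TSS) of a protein-coding gene, and if it was called in both libraries of 0 h and in neither library of 48 h. This gave 1054 lost promoters at 1004 genes, out of 12464 promoters called in both 0 h libraries and 121891 merged regions in all. Each is named by the gene of the nearest TSS.

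ATAC-seq maps open chromatin with a transposase that cuts accessible DNA. The cells were the KH2 ES line (strain label C57BL/6) with the transgene TRE:GATA6-DSREd2, in which doxycycline (Dox) switches on GATA6, and all groups carried it. The series has 14 libraries of 50000 cells each, 2 at each of 0, 2, 4, 8, 16, 24 and 48 h. The 0 h cells grew without Dox in serum-free 2i medium with inhibitors of MEK and GSK3 and with leukemia inhibitory factor (LIF). For induction, cells were switched to serum medium with LIF and Dox at 1 µg/mL. Dox was withdrawn after 12 h from cells collected later (16, 24 and 48 h). Induction and the switch of medium therefore cannot be told apart. The study reports that its replicate experiments were done independently, without saying whether these were separate cultures. The labels name no separate cultures for the 2 libraries of a time point, so their spread may be technical. These are bulk libraries, in which fewer cells with an open promoter and less open chromatin per cell cannot be told apart.

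GATA6 is the transcription factor that directs cells of the inner cell mass to primitive endoderm (PrE), while ES cells resemble the alternative fate, the epiblast (Epi). Many promoters of broadly used genes lie in CpG islands, stretches rich in CpG dinucleotides that are usually open in every cell type. Promoters poor in CpG are more often open in particular cell types, and many genes have several promoters whose use differs between tissues.

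Series values that bear on these promoters are few. Each list held between 55588 and 65073 peaks, and read depth is unknown from the lists. Marker promoters were checked by gene: 8 of 10 ES cell markers had a promoter called in both 0 h libraries and 7 of 10 in both 48 h libraries, while PrE markers went from 7 of 10 at 0 h to 10 of 10 at 24 h and 9 of 10 at 48 h. Among the markers, Nanog (ES cell) and Thy1 (fibroblast) had their only promoter region lost. Of 5 fibroblast markers, Col1a1, Col3a1 and Twist2 had no called promoter region in any library.

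Sequences of 9 lost promoters are shown because the genes represent the groups described further on, namely Wnt targets (Sp5, T), pluripotency and epiblast regulators (Nanog, Fgf4, Otx2, Mybl2), a methylcytosine dioxygenase (Tet1), a receptor (Fgfr1) and one of the highest-ranked peaks (Slc6a6). Each is a 160 base window inside the lost region that overlaps no annotated exon, read 5′ to 3′ on the strand of the gene from GRCm38. Capitals mark matches, on either strand, to 1 of 15 short motifs, which may overlap each other. A match is a description of the letters and not a bound site.
Sp5 (chr2:70474740-70474899, plus strand): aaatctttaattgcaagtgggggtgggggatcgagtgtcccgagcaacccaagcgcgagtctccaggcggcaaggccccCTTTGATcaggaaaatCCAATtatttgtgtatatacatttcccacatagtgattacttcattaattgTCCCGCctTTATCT
T (chr17:8434050-8434209, plus strand): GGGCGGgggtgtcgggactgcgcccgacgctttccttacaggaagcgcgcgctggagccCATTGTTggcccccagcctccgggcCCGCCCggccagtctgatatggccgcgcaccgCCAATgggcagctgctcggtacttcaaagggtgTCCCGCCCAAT
Nanog (chr6:122707160-122707319, plus strand): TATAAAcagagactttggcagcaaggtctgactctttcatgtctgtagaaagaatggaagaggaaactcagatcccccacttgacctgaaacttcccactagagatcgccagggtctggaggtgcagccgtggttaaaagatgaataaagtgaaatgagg
Fgf4 (chr7:144861132-144861291, plus strand): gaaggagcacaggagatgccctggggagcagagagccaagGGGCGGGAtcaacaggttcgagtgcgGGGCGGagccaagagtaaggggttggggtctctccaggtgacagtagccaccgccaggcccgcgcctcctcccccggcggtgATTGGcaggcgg
Otx2 (chr14:48674451-48674610, minus strand): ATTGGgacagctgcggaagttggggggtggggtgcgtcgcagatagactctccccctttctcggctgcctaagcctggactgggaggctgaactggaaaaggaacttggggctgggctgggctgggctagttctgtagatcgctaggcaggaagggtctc
Mybl2 (chr2:163074993-163075152, plus strand): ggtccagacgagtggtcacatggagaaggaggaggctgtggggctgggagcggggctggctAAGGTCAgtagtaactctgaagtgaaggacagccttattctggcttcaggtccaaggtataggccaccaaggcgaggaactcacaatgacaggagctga
Tet1 (chr10:62893113-62893272, minus strand): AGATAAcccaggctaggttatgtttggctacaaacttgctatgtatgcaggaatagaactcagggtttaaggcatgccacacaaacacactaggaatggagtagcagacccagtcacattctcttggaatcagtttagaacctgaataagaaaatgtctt
Fgfr1 (chr8:25513364-25513523, plus strand): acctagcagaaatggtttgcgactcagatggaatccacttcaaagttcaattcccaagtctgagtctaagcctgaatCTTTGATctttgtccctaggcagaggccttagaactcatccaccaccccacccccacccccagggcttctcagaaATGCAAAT
Slc6a6 (chr6:91701452-91701611, plus strand): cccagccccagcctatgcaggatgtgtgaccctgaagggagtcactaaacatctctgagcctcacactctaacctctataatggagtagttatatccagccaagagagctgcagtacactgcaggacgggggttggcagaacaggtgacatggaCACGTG
The matches in Sp5 were TCF/LEF, CCAAT box, E2F6-like and GATA in that order, and those in Fgfr1 were TCF/LEF and octamer. T held 7 matches, of GC box, CCAAT box, E2F6-like and SOX. Mybl2 held an ESRRB half-site, Tet1 a GATA match, Slc6a6 an E-box, Nanog a TATA box, Otx2 a CCAAT box and Fgf4 a mix of GC box, E2F6-like and CCAAT box.

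The rule was met by 8.46% of the promoters called in both 0 h libraries, set beside 44% of all merged regions with those calls. A further 519 promoters were called in 1 of the 2 48 h libraries, and 10891 were called in both libraries of 0 h and both of 48 h (kept promoters). The opposite class, called in both 48 h libraries and neither 0 h library (gained promoters), held 1780 regions, and 19261 lost regions lay away from promoters. The distance limit passed through a continuous range: 71 lost regions had their midpoint 901 to 1000 bp from a TSS and 60 had it at 1001 to 1100 bp. Just inside the limit lay Acap1 at 992 bp, Coro1c at 994 bp and Phactr1 at 997 bp, and just outside lay Kbtbd11 at 1001 bp, with Cdkl3 and 4930535I16Rik at 1006 bp.

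To ask when the lost promoters stopped being called, the 10 libraries of 2 to 24 h were used. The rule did not ask for their calls, although their peaks took part in the merging that set the regions. At 2 h, 61.2% and 67.2% of the lost promoters were called in the 2 libraries, at 4 h 59.3% and 62.6%, and at 8 h 52.3% and 54.5%. The 16 h libraries called 53.8% and 55.8%, and the 24 h libraries 31.5% and 33.7%. As means, 64.2% ± 4.23 (2 h), 61.0% ± 2.35 (4 h), 53.4% ± 1.54 (8 h), 54.8% ± 1.41 (16 h) and 32.6% ± 1.54 (24 h) were called (SD of 2 libraries). The ranges of 2 h and 4 h overlapped, as did those of 8 h and 16 h, although within each replicate number the share at 2 h was above that at 4 h and the share at 16 h above that at 8 h, and replicate 2 called more of them than replicate 1 at 5 of 5 time points. Both 24 h libraries lay below every earlier library. Of lost regions away from promoters, 60.5% ± 2.10 (2 h), 52.9% ± 1.69 (4 h), 37.5% ± 0.0808 (8 h), 38.2% ± 2.62 (16 h) and 18.1% ± 1.05 (24 h) were called. Both kinds of region overlapped at 2 h and had separate ranges from 4 h on, and this difference was not tested. Kept promoters were called in 95.6% to 98.7% at these times.

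**Figure D1:**
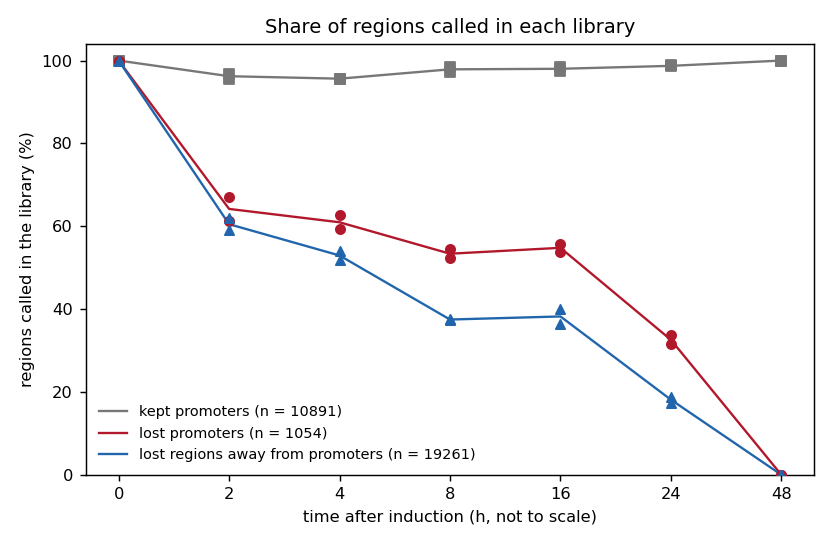
Share of regions called in each library (y axis, %) at each time point (x axis, h, not to scale), with 1 point per library and lines through the means of 2. Lost promoters (red circles, n = 1054) stood at 32.6% at 24 h and lost regions away from promoters (blue triangles, n = 19261) at 18.1%, while kept promoters (grey squares, n = 10891) were called in at least 95.6%, and the values of 0 h and 48 h are set by the rule.

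The 100% at 0 h is set by the rule, which asks for both 0 h libraries. When lost promoters were defined in 1 replicate number and read in the other, the other called 74.0% ± 8.22 (0 h), 55.5% ± 7.67 (2 h), 53.8% ± 6.83 (4 h), 51.5% (8 h), 51.8% (16 h), 37.1% (24 h) and 18.2% ± 7.68 (48 h), with the SD over the 2 directions. In both directions the share was lower at 2 h than at 0 h, and lower at 24 h than at 16 h.

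Single promoters followed many courses. Counting over the 10 libraries of 2 to 24 h, 130 lost promoters were called in none and 131 in all 10, with between 71 and 123 at each other number of calls. The last time point at which both libraries called the region was 0 h for 287, 16 h for 275 and 24 h for 236, and 2, 4 or 8 h for 69, 93 and 94. Thus 145 lost promoters had both calls at 16 h and neither at 24 h, the most for any pair of neighbouring time points between 2 and 24 h, against 32 from 2 to 4 h and 40 from 8 to 16 h. The number of calls never rose from one time point to the next at 638 (60.5%). At 129 (12.2%) the region was missed by both libraries of a time point and called by both at a later one, and 55 of these were missed at 8 h and called in both libraries at 16 h.

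**Figure D2:**
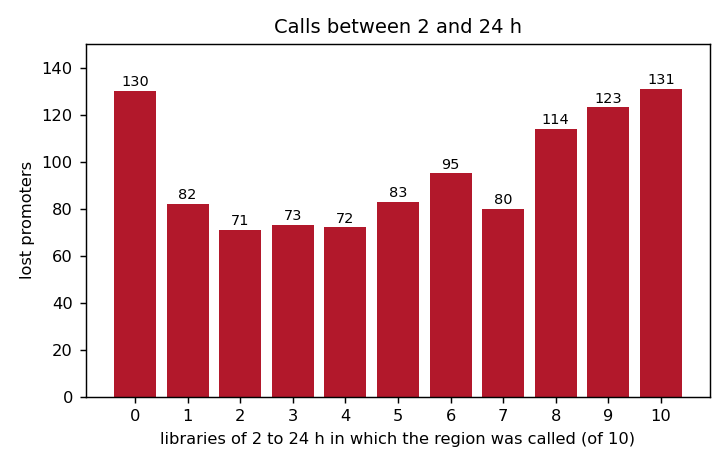
Number of lost promoters (y axis) by the number of the 10 libraries of 2 to 24 h that called the region (x axis). The ends are the highest bars, with 130 promoters called in none and 131 in all 10.

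Each region's calls in these 10 libraries were tested for a trend with time by an exact permutation test (two-sided, on ranked times), with Benjamini-Hochberg adjustment over all 54954 merged regions with 2 to 8 calls. Of 588 lost promoters tested, 0 fell at an adjusted p of 0.05, the background being 0% of all regions tested, since the smallest adjusted p that any region reached was 0.0693. At an unadjusted p under 0.05, 216 lost promoters (36.7%) fell and 23 (3.91%) rose, against 26.9% and 20.9% of all regions tested and 10.5% and 23.1% of all promoters tested. With regions of 3 to 7 calls alone, 37 of 403 lost promoters fell (9.18%) and 6 rose (1.49%) after adjustment, against 11.2% and 10.2% of all such regions and 3.38% and 8.14% of all such promoters. The rule asks for calls at 0 h and none at 48 h, which favours falls over rises in between. The comparison sets also hold gained regions, so these shares are given as a description.

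Rank and base composition were set beside those of kept promoters. Scores were ranked within each library, so that percentile 100 is the highest peak of that library. The median score percentile at 0 h was 41.2 ± 2.72 for lost promoters and 76.8 ± 2.16 for kept promoters (SD, n = 2 libraries). Of promoters with a mean 0 h percentile up to 10, 39.0% were lost (64 of 164), and the share was lower in each higher step of 10 percentiles, down to 1.16% (32 of 2759) above 90. These libraries took part in the rule, so the ranks are given as a description.

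Sequence took no part in the rule. In the central 300 bp, the ratio of observed to expected CpG had a median of 0.348 in lost promoters (quartiles 0.20 and 0.546) and 0.787 in kept promoters, with 0.562 in gained promoters and 0.189 in lost regions away from promoters. GC content had a median of 55% against 65% in kept promoters. Windows with a CpG ratio above 0.6 and GC content above 50% made up 18.2% of lost and 76.5% of kept promoters. The share of 0 h promoters that were lost was lower at each step of the CpG ratio, from 48.5% (264 of 544) under 0.2 to 30.9%, 12.8%, 3.83% and 1.59%, and to 0.450% (6 of 1334) at 1 or more. The order was the same among promoters with a 0 h percentile up to 50, from 54.9% to 1.64%, and among those above 50, from 42.9% to 0.0972%.

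**Figure D3:**
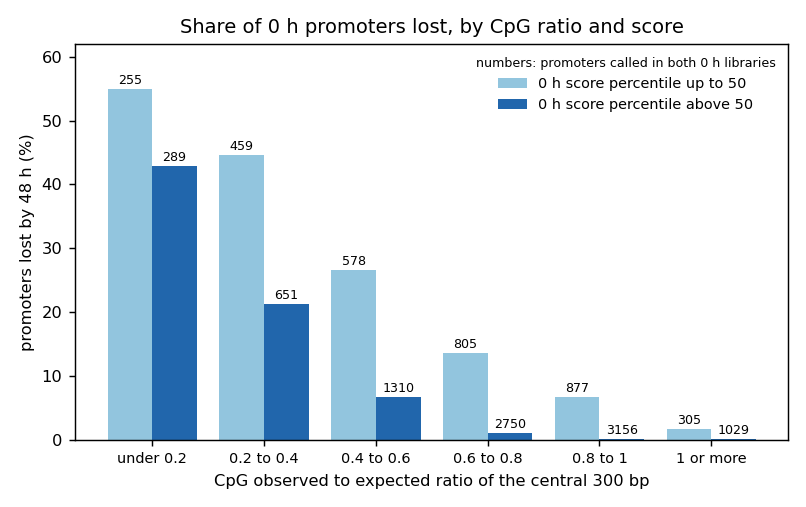
Share of promoters called in both 0 h libraries that were lost by 48 h (y axis, %) by CpG observed to expected ratio (x axis), for promoters with a mean 0 h score percentile up to 50 (light bars) and above 50 (dark bars), with the number of promoters over each bar. In both sets the lost share was lower at each higher ratio, from 54.9% to 1.64% and from 42.9% to 0.0972%.

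Position relative to the TSS was read next. A TSS lay inside the region for 57.0% of lost promoters (601) and for 90.5% of kept promoters. Regions covering a TSS were also CpG-poor among the lost (median ratio 0.387) and not among the kept (0.804). The gene's outermost start was within 1 kb for 628 lost promoters (59.6%) and for 86.1% of kept promoters, and the other losses were at internal or alternative starts. At 80 lost promoters the nearest TSS belonged only to transcripts annotated with an incomplete 5′ end, a limit that applies to Mybl2 and Postn, among others. The midpoint fell in an intron at 484 lost promoters, between genes at 263, in a UTR at 220 and in a coding exon at 87. Only 24 lay within 1 kb of start sites of more than 1 gene (2.28%), against at most 11.9% of kept promoters. The latter count may include promoters called in only 1 of the 2 48 h libraries.

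The same features were read in early and late losses. The 130 called in none of the 10 libraries had a median 0 h percentile of 30.2 ± 0.894 (SD, n = 2), covered a TSS in 41.5% and had a median CpG ratio of 0.246. Those called in all 10 had a median 0 h percentile of 68.3 ± 0.626, covered a TSS in 77.9% and had a ratio of 0.387. In this late group the median percentile was 61.5 ± 4.10 (2 h), 64.7 ± 2.37 (4 h), 59.7 ± 1.21 (8 h), 58.8 ± 0.353 (16 h) and 33.1 ± 0.879 (24 h), so the rank within the library was lower at 24 h while the region was still called. The rule asks for no call at 48 h, which favours a low rank shortly before, so this course is given as a description.

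Short motifs were then counted in the central 300 bp. GC boxes (GGGCGG), bound by SP and KLF factors, were present in 29.0% of lost promoters, 64.8% of kept promoters and 54.0% of all promoter regions. ETS motifs (CCGGAAG) were present in 3.23%, 15.6% and 11%, and the E2F6-like TCCCGC in 15.8%, 41.1% and 33.9%. Motifs of pluripotency factors stood at higher shares in lost than in kept promoters. The octamer ATTTGCAT of OCT4 was found in 3.13% against 1.09%, the ESRRB half-site AAGGTCA in 6.83% against 2.76% and the SOX motif AACAATG in 3.70% against 1.33%, where all promoter regions had 1.28%, 3.85% and 2.11%. Gained promoters held them in 1.29%, 4.16% and 3.99%, so that the SOX share was not higher in lost than in gained promoters, and lost regions away from promoters in 6.22%, 12.3% and 7.31%. TCF/LEF motifs (CTTTGAT), through which Wnt signalling acts, were found in 5.50% of lost, 1.58% of kept and 2.24% of all promoter regions, and this motif was added to the search after lost promoters of Wnt targets had been seen. The GATA motif AGATAA was found in 8.73% of lost, 3.74% of kept, 16.5% of gained and 7.61% of all promoter regions. AP-1 (TGANTCA) stood at 9.96% of lost, 3.99% of kept and 6.13% of all, the TATA box (TATAAA) at 7.12%, 3.10% and 4.43%, the E-box (CACGTG) at 5.22%, 8.46% and 7.56%, the NRF1 core (GCATGCGC) at 0.949%, 3.76% and 2.63% and CRE (TGACGTCA) at 0.569%, 2.32% and 1.72%. CCAAT boxes (CCAAT; 30.3% and 32.0%, with 28.8% of all) and the YY1 core (AAGATGG; 5.12% and 6.71%, with 5.84% of all) were closest between lost and kept promoters. Base composition moved with these shares, since lost promoters had the lower GC content, and its part in them was not tested.

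Early and late losses were set side by side. SOX matches were found in 7.69% of the 130 promoters called in none of the 10 libraries and in 0.763% of the 131 called in all 10, and TCF/LEF matches in 10% and 4.58%. GATA matches went the other way, at 7.69% and 15.3%. No test was run on these shares.

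Gene groups were compared by how many of their 0 h promoters were lost, beside 8.46% over all genes. The study's Epi genes, which derive from blastocyst cells and not from these libraries, lost 36 of 230 (15.7%), and its PrE genes lost 16 of 521 (3.07%). Gained promoters numbered 37 for Epi genes, 120 for PrE genes and 1780 over all genes, beside 230, 521 and 12464 promoters called at 0 h. Wnt pathway genes and targets lost 6 of 28, potassium channels 12 of 58, calcium and sodium channels 6 of 22, FGF and ERK signalling genes 5 of 25 and cytochrome P450 enzymes 5 of 17. Core pluripotency genes lost 3 of 15, formative epiblast genes 3 of 16, naive pluripotency genes 4 of 26, synaptic genes 8 of 47 and Gpr or Adgr receptors 10 of 55. Housekeeping groups lost few or none, with 0 of 65 for cytosolic ribosomal proteins, 0 of 47 for histones, 0 of 41 for the proteasome, 0 of 39 for respiratory complex I and 1 of 65 for Rab GTPases. Zinc finger genes lost 21 of 380 (5.53%), Nodal and BMP genes 1 of 23, LIF and STAT3 genes 1 of 14, germline genes 1 of 29, and glutathione and UDP-sugar transferases 1 of 23. Solute carriers lost 25 of 249 (10.0%), DNA methylation genes 3 of 20, tripartite motif genes 7 of 49, protocadherins 3 of 25, collagens 3 of 16, PrE factors 2 of 15 and trophectoderm genes 2 of 12. Of groups with fewer promoters called at 0 h, olfactory and vomeronasal receptors lost 5 of 7, keratins 2 of 5, claudins 0 of 6 and the fibroblast list 2 of 2 (Thy1 and Postn). Most lists are small, and CpG content was not held equal between them.

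**Figure D4:**
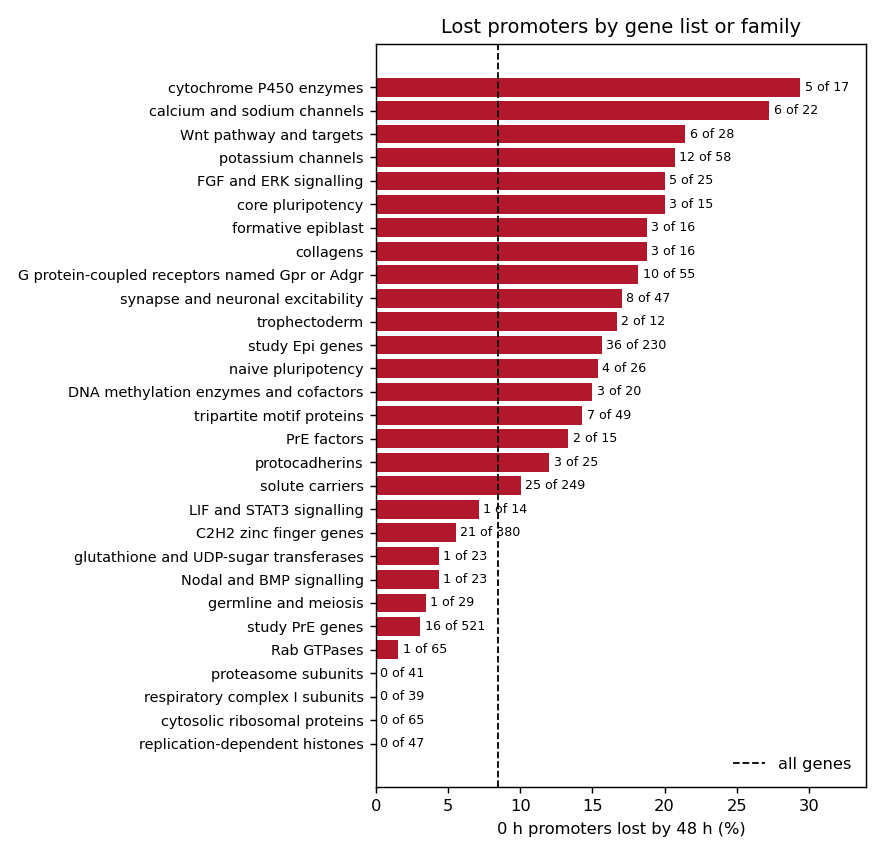
Share of promoters called in both 0 h libraries that were lost by 48 h (x axis, %) for gene lists and families with at least 12 such promoters, with the counts beside the bars and the share over all genes, 8.46%, as a dashed line. Epi genes (36 of 230) lie above the line and PrE genes (16 of 521), ribosomal proteins and proteasome subunits (0 of 65 and 0 of 41) below it.

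The Wnt group held early and late losses. T, the mesoderm regulator Brachyury, and Cdx1, a caudal homeobox factor, were called in none of the 10 libraries, after 0 h percentiles of 25.8 and 53.4 for T and 3.40 and 42.5 for Cdx1. Sp5, a zinc finger target of Wnt signalling, was called in both libraries at every time from 0 to 24 h except 8 h, when 1 library called it. Its percentiles were 72.5 and 62.3 at 0 h, 48.6 and 69.3 at 2 h, 53.7 and 38.5 at 4 h, 51.8 in the calling library at 8 h, 21.1 and 9.26 at 16 h and 2.13 and 4.86 at 24 h. Both 24 h values lay below all earlier ones. The ligand gene Wnt8a stood at 95.9 and 96.4 at 0 h, was called in both libraries through 16 h (80.0 and 86.9) and in 1 at 24 h (36.2). Neither T, Cdx1, Sp5 nor Wnt8a had another promoter called at 48 h. Sfrp1, a secreted Wnt antagonist, was called in all 10 libraries, and the neighbouring region at the same TSS, 995 bp away, was called in all 14. The lost region of Tcf7l2, a TCF factor, lies near an internal start without covering it. A region 607 bp away at the same TSS was called in neither 0 h library and in both 48 h libraries. Another promoter of Tcf7l2, 154622 bp from the lost region, was called in all 14 libraries.

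Among pluripotency and epiblast genes, Nanog, the homeobox factor that marks the epiblast, had 1 promoter region. Its percentiles at 0 h were 33.0 and 75.3. The region was called in 1 library at 2 h (14.9), both at 4 h (31.9 and 21.8), neither at 8 h, both at 16 h (56.3 and 44.7), 1 at 24 h (20.1) and neither at 48 h. Nanog was thus missed at 8 h between times at which both libraries called it, and its exact permutation p for a trend was 1. Fgf4, the growth factor secreted by epiblast cells, was called in every library up to 24 h, with percentiles of 50.5 and 48.0 at 0 h, between 12.9 and 38.1 from 2 to 8 h, 54.2 and 54.1 at 16 h and 30.2 and 19.3 at 24 h. Otx2, a homeobox factor of the formative epiblast, was called in 8 of the 10 libraries and Zscan10, a zinc finger factor of ES cells, in 9. Trim71, an RNA-binding ubiquitin ligase, was called in 3, and a neighbouring region at its TSS, called in 1 library at 0 h, was called in both from 16 h on. Nr5a2, a nuclear receptor, lost one promoter with a single call after 0 h, and its promoters 4645 and 6769 bp away were called in neither 0 h library and in both libraries from 8 h and from 16 h on.

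Mybl2, a cell-cycle transcription factor in the Epi list, had one of the highest peaks. Its lost region stood at 97.5 and 95.2 at 0 h, 98.0 and 98.9 at 2 h and 92.4 and 93.1 at 4 h. It then stood at 65.3 and 67.2 at 8 h and 32.3 and 48.3 at 16 h, with 20.8 in 1 library at 24 h. The ranks at 8 h and later lay below all earlier ones. The main start of Mybl2, 20878 bp away, was called in all 14 libraries, at a mean percentile of 74.8 at 0 h and 90.4 at 48 h. Tet1, which oxidizes methylcytosine, lost 2 internal promoters, one called in all 10 libraries and one in 3, while a promoter 5884 bp from the former was called in all 14 (40.2 at 0 h, 81.3 at 48 h). Socs2, a feedback inhibitor of cytokine signalling, was called in all 10 libraries, at percentiles of 3.61 and 8.00 by 24 h, and the next region at that TSS was called in all 14. Phc1, a Polycomb subunit, was called in 8 of the 10 libraries. A region 1132 bp away at the same Phc1 TSS was called in neither 0 h library and in both 48 h libraries.

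The other lost promoters of the FGF and ERK list, at Etv1, Etv4, Fgf10 and Fgfr1, had between 0 and 3 calls in the 10 libraries. Etv4 and Etv1, ETS factors induced by ERK, had 0 and 1 calls, while the adjacent region at the Etv4 TSS was called in all 14 libraries (60.5 at 0 h, 85 at 48 h), as was an Etv1 promoter 5470 bp away (79.7 at 0 h, 88.5 at 48 h). Fgfr1, an FGF receptor, had its upstream promoter called in both libraries at 0 h (73.8 and 67.8) and 2 h (54.9 and 48.4), in 1 at 4 h (18.5) and in none later, while a promoter 5625 bp downstream was called in all 14. Il17rd, an inhibitor of FGF signalling, followed the same calls, from 95.4 and 93.0 at 0 h to 70.9 and 69.8 at 2 h and 38.8 in 1 library at 4 h. Its lost region is intronic, and a promoter of Il17rd 28867 bp away was called in all 14 libraries (72.3 at 0 h, 79.7 at 48 h). The exact permutation p for a fall was 0.0333 for both Fgfr1 and Il17rd (adjusted p = 0.0996, Benjamini-Hochberg). Fgf10 had a lost region called in 2 of the 10 libraries, and a region 768 bp away at the same TSS was called in both libraries at 24 and 48 h and in neither at 0 h.

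**Figure D5:**
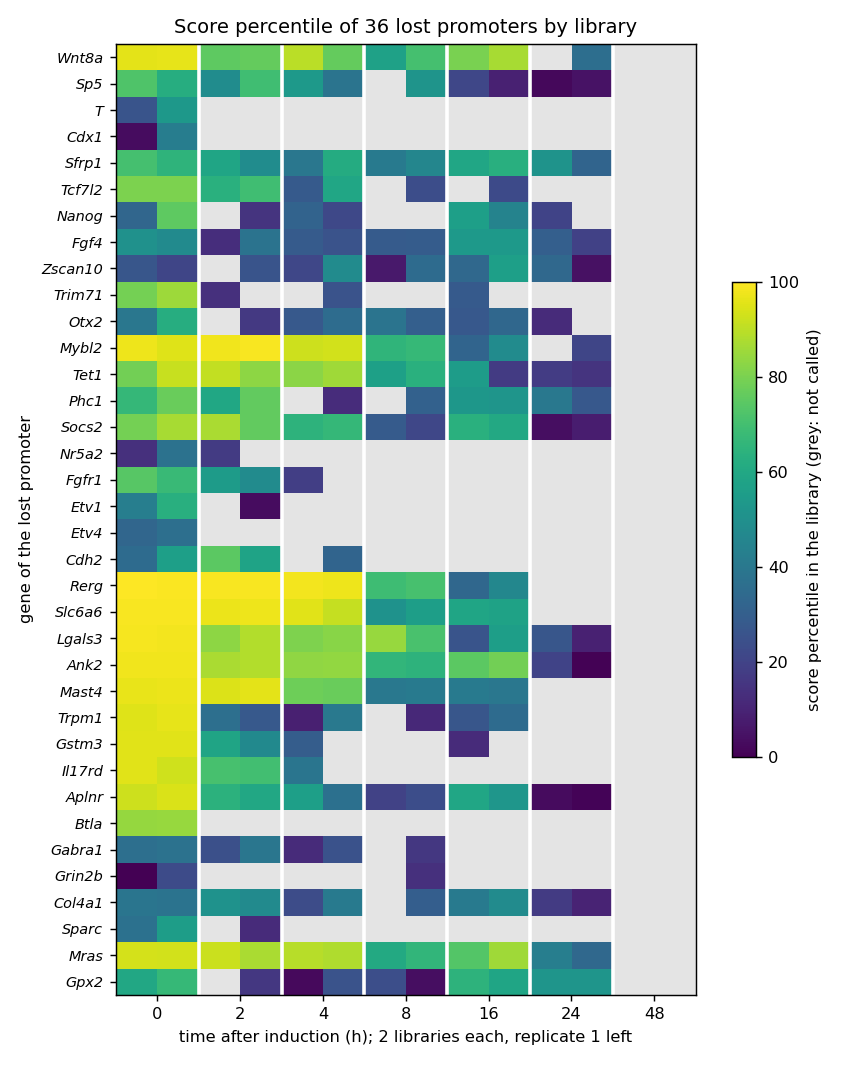
Score percentile within the library (colour, 0 to 100) for 36 lost promoters (rows) in the 14 libraries (columns, grouped by time in h, replicate 1 at the left), with grey for a library that did not call the region. Rerg, Slc6a6, Mast4 and Mybl2 pass from the top percentiles at 0 h to under 60 at 16 h, T, Cdx1, Etv4 and Btla have no call after 0 h, and the 48 h columns are empty by the rule.

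The highest-ranked lost promoters belonged to genes of varied function. Rerg, a Ras-like growth inhibitor, stood at 99.6 and 99.4 at 0 h, 99.2 and 98.8 at 2 h, 98.1 and 97.4 at 4 h, 68.8 and 70.9 at 8 h and 33.4 and 46.4 at 16 h, and was called in neither library at 24 h. A region 745 bp away at the same Rerg TSS was called in all 14 libraries (57.7 at 0 h, 82.7 at 48 h), and another at 1124 bp was gained. Slc6a6, the taurine transporter, stood at 99.0 and 99.0 at 0 h and 59.0 and 57.5 at 16 h and was called in neither library at 24 h. Rerg and Slc6a6 each had an exact permutation p of 0.0444 for a fall (adjusted p = 0.0996). Mast4, a kinase, had the same calls, and promoters of Mast4 51616 and 376160 bp away were called in all 14 libraries. The nearer of these stood at 98.9 at 0 h and 90.7 at 48 h. Lgals3, which encodes galectin-3, and Ank2, which encodes an ankyrin, were called in all 10 libraries, and at 24 h stood at 27.0 and 9.31 for Lgals3 and 20.3 and 0.680 for Ank2. Slc6a6 and Lgals3 each had another promoter called at 48 h but not throughout. Aplnr, the apelin receptor, was called in all 10 and stood at 2.81 and 1.11 at 24 h. Trpm1, a cation channel, stood at 95.3 and 96.3 at 0 h and at 36.6 and 27.9 at 2 h. Gstm3, a glutathione transferase, was called in both libraries last at 2 h.

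Among promoters called in none of the 10 libraries, Btla, a lymphocyte receptor gene, had the highest 0 h percentiles (84.2 and 84.7), followed by Cacng5 (69.9 and 74.7), Specc1l (68.9 and 69.0), Phldb2 (60.1 and 73.9) and Aebp2 (65.3 and 67.5). Both 0 h libraries agreed in rank for Btla and Specc1l within 1 percentile. At 2 h none of these 5 was called in either library. Specc1l had another promoter, 17922 bp away, called in all 14 libraries (54.1 at 0 h, 86.1 at 48 h).

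PrE genes made up 16 of the lost promoters, and 10 of the 16 had another promoter called in all 14 libraries, set beside 258 of all 1054 (24.5%). Of the 36 lost promoters of Epi genes, 13 had another promoter called in all 14 libraries. No promoter of the gene was called at 48 h for 1 of the 16 and 10 of the 36, set beside 472 of all 1054 (44.8%). Mras, a Ras family GTPase, was called in all 10 libraries at its lost internal promoter and kept a promoter 17852 bp away (53.1 at 0 h, 81.9 at 48 h). Sparc, a secreted matrix protein of parietal endoderm, lost a region upstream of the TSS and had a promoter 4084 bp away in all 14 (40.9 at 0 h, 80.8 at 48 h). Col4a1, a basement membrane collagen, lost an internal region that 9 of the 10 libraries had called, and no promoter region of the gene was called in both 48 h libraries. Gpx2, a glutathione peroxidase, was called in 9 of the 10, at 64.5 and 58.9 at 16 h and 52.3 and 52.1 at 24 h, and had no other promoter at 48 h.

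A lost promoter did not mean that all promoters of the gene were lost. At 239 lost promoters (22.7%) an adjacent region at the same TSS was called in both 48 h libraries, and these lost regions were narrow, 414 bp at the median against 624.5 bp over all lost promoters and 770 bp where no promoter was called at 48 h. At a further 224 another promoter of the gene was called in all 14 libraries, at 79 another was called at 48 h but not throughout, and at 40 one was called in a single 48 h library. No promoter of the gene was called at 48 h for 472 lost promoters (44.8%). Only 420 of all 1054 (39.9%) were at genes with another annotated promoter region at all. These shares were not adjusted for the number of promoter regions per gene. Of these 472, 357 covered a TSS (75.6%), against 44 of the 239 with an adjacent region (18.4%). Their median CpG ratio was 0.419, against 0.261 where another promoter was called in all 14 libraries.

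Counted over genes, 241 of 1004 (24.0%) had another promoter called in all 14 libraries. No such share was computed for genes of kept promoters, and 9591 promoters of the series were called in all 14, so the share is a description. The nearest such promoter of the gene lay at a median distance of 16290 bp from the lost one, and from 1296 to 812915 bp. Examples are Ank2, whose lost start lies 164095 bp from the nearest of 4 such promoters, Utrn, which encodes utrophin, at 253427 bp, and Slc25a40, a mitochondrial carrier, at 1634 bp. In Slc25a40 the lost region had percentiles of 94.2 and 91.7 at 0 h and 76.9 and 79.5 at 24 h before it was missed at 48 h, and the other promoter stood at 61.0 at 0 h and 85.7 at 48 h. Cdh2, the N-cadherin gene, lost a region at an internal start and Mbd3, a subunit of the NuRD complex, a region in a coding exon. Their promoters 138318 and 4238 bp away, in that order, were called in all 14 libraries.

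At 70 of 1004 genes (6.97%) another promoter was gained by 48 h while one was lost. The series held 1780 gained promoters in all. The like share was not computed for genes of kept promoters, so the count is a description. Aebp2, a cofactor of Polycomb repressive complex PRC2, lost the region at its gene start in all induced libraries, and a promoter 3436 bp away was called in both libraries from 8 h on, with a mean percentile of 92.5 at 48 h. Cacng5, a calcium channel subunit, had a promoter 3511 bp away called in both libraries from 16 h on. Gata2, a trophectoderm and blood regulator, lost a weak region (6.35 and 6.84 at 0 h), and a promoter 4339 bp away was called in both libraries from 8 h on. Phldb2 gained 2 promoters 109178 and 109991 bp from its lost region, called in neither library up to 16 h, while the region 898 bp away at its lost TSS was called in all 14 (73.0 at 0 h, 92.1 at 48 h).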

How the data were processed

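ATAC-seq peak lists of 14 libraries were analysed, 2 for each of 7 time points, grouped by the labels. The authors made them with the ENCODE ATAC-seq pipeline and deposited 1 list per library, filtered on an irreproducible discovery rate of 0.05 over pseudoreplicates and against a blacklist per the file names. Each deposited peak carries a score on an unstated scale, which was ranked only within its library. No read counts were used here, so depth and counting intervals cannot be given, and a region not called may be open below the calling threshold. Builds GRCm38 and mm10 come from the submitters' processing notes; GENCODE M21 gave the TSSs, and coordinates count from 1. Peaks on X and Y (17577, 2.09%) were left out, and no column was unmapped.

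Differential binding on reads, as the study did, needs counts that peak lists lack. Calls were tested for a trend over the 10 libraries of 2 to 24 h by an exact permutation test (numpy 2.4.6, pandas 2.3.3, Python 3.11.15), tested on simulated data. Calls in the 0 h and 48 h libraries chose among the merged regions, and these libraries were not tested against each other. Named genes were every lost promoter of a gene in the hand-made lists, up to 8 each of the Epi and PrE lists, the 10 highest in 0 h percentile, the 5 highest called in none and in all of the 10 libraries, and the 8 highest with another promoter in all 14. Not all genes of this rule are reported here. Members, 15 gene lists, 18 families and 15 motifs were chosen with earlier results of these data known. Alternatives changed the TSS distance and set, the overlap, the merging, the peak number and the libraries.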

Additional observations from a re-analysis of the deposited data

How the results depend on the processing

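Results were recomputed under 143 alternatives, 79 of them with every library kept. Of those 79, 34 moved by less than the replicate spread or 1.5 times and 45 by more. The 24 h share was the lowest of the 5 under every alternative that gave shares. A TSS distance of 500 bp gave shares of 65.5% (4 h), 57.6% (8 h), 60.2% (16 h) and 36.2% (24 h), and 155 genes with another promoter in all 14 libraries. A distance of 2 kb gave 1692 lost promoters, shares of 58.1%, 48.4%, 50.7% and 28.9% at these times, and 371 genes. Regions that cover a TSS numbered 601, with shares of 71.6% (2 h), 68.9%, 59.6%, 64.1% and 38.5%, and 133 genes. With 1 TSS per gene there were 648, with 56.7% (8 h), 56.8% (16 h) and 34.9% (24 h), and 0 genes by construction. Requiring 50% of the region covered gave 50.7% at 8 h and 29.7% at 24 h, the 50000 highest peaks 49.3% at 8 h and 50.0% at 16 h, and merging within 100 bp 55.2% and 57.6%. Calls in at least 1 library of 0 h gave 1848 lost promoters, and TSSs of all gene types 2220. Defined in 1 replicate and read in the other, the shares were 55.5%, 53.8%, 51.5%, 51.8% and 37.1%. The median 0 h percentile of lost promoters was 55.2 when peaks were ranked by width and 48.0 with 50% of the region covered. Their median CpG ratio ran from 0.284 (2 kb) to 0.402 (50% covered). Kept promoters were not recomputed under these alternatives.

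Leaving out a library or a replicate number gave 1210 to 1775 lost promoters, with 1774 without replicate 1 and 1775 without replicate 2. The shares ranged from 51.2% to 67.5% at 2 h, 48.9% to 65.4% at 4 h, 45.2% to 60.3% at 8 h, 46.4% to 60.8% at 16 h and 28.4% to 43.6% at 24 h, and the genes from 261 to 368, the highest without replicate 1. The median 0 h percentile of lost promoters ranged from 31.29 to 41.25 and their median CpG ratio from 0.347 to 0.413. In the trend test, run without each single library of 2 to 24 h, 0 lost promoters fell after adjustment, as with log2 of time, and 37 did when 3 to 7 calls were required, where fewer regions were tested. With a replicate block in the exact permutation test, 0 fell after adjustment and 106 at an unadjusted p under 0.05, against 216 without it. Across regions, libraries of the same number did not deviate together (correlations of calls between -0.0156 and 0.0125 over 21 pairs of time points), so the numbers were not taken as pairs. In total, however, the peak number was higher in replicate 2 at each of the 7 time points, as was the number of lost promoters called at 5 of 5 between 2 and 24 h. Depth is unknown, and a region not called may still be accessible.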

Other observations

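Lost promoters occurred on every autosome, from 6.51% of the 0 h promoters on chromosome 12 to 11.2% on chromosome 1. In 15 places at least 3 lost promoters lay within 100 kb of the next, and a place may hold more than 1 region of a gene. No like count was made for all 0 h promoters, so the number is a description. One place held Ifitm5, Ifitm1 and Ifitm3, members of the interferon-induced transmembrane family. Ifitm1 had a mean 0 h percentile of 92.4 and was called in all 10 libraries of 2 to 24 h, Ifitm5 stood at 51.6 and was called in 9, and Ifitm3 stood at 3.74 and was called in 1. None of the 3 had another promoter called at 48 h. Another held Lrrc34, Lrriq4 and Lrrc31, leucine-rich repeat genes, in which Lrrc31 (82.1 at 0 h) was called in all 10 libraries and both lost regions of Lrriq4 in at most 1. A further place on chromosome 7 held the fucosyltransferase genes Fut1 and Fut2, called in 3 and in 0 of the 10 libraries. These places were singled out after their values were seen.

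At 47 genes more than 1 promoter was lost, and 3 genes lost 3 (Plec, Cpeb3 and Rarg). Rarg, a retinoic acid receptor, had 0 h percentiles of 60.2, 36.9 and 36.3 at its lost promoters. The first was called in both libraries at 2 and 4 h and in none from 8 h, the second in 2 libraries and the third in 9 of the 10. Plec, which encodes plectin, lost a promoter at a 0 h percentile of 90.4 and one at 8.38 that was called in neither library from 2 to 8 h and in both at 16 and 24 h. Potassium channel genes lost 12 promoters, of which 9 had no promoter of the gene called at 48 h and 0 had another in all 14 libraries, beside 472 (44.8%) and 258 (24.5%) of all 1054 lost promoters. The number of promoter regions per gene was not held equal in this comparison.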
